A study of Homo sapiens with 12 samples.

Results

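The PGC-1 coactivators and the regulators of mitochondrial biogenesis were followed in Caco-2 cells, an established human colorectal adenocarcinoma epithelial line, given a SIRT1 plasmid or SIRT1 siRNAs. They were defined as 10 genes: PPARGC1A, PPARGC1B and PPRC1, NRF1, GABPA and ESRRA, TFAM, TFB1M and TFB2M, and POLG. Every probe of the Illumina bead array whose single platform symbol is one of these genes was taken, which gave 14 probes, out of 20046 genes with a single-symbol probe.

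The arrays labelled OE Sirt1 (n = 3) held cells given the plasmid pCMV-ENTRY Sirt1, and the arrays labelled OE control (n = 3) held cells given pCMV-Neo. KD1 and KD2 (n = 2 each) received 1 of a pair of SIRT1 siRNAs that do not overlap, and the siRNA control (n = 2) received a scrambled siRNA of low GC content. The siRNA cells were lysed after 72 h, and no time is stated for the plasmid cells. All cells were Caco-2 grown in serum, the design text calls the replicates biological, and the share of cells that took up plasmid or siRNA is not stated. Fewer cells with a transcript and less of it per cell cannot be told apart in such samples.

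Between 15345 and 17981 probes were detected per array, that is had a detection p-value below 0.01, or 32.5% to 38.1% of all probes. Of 16 intestinal epithelial markers, 11 were detected on all 12 arrays, among them VIL1, CDX2, EPCAM and CDH17, and LGALS4 was detected on 0. Of 11 fibroblast markers, 7 were detected on all 12, while DCN, THY1 and FAP were detected on 0. Of 10 leukocyte markers on the array 3 were detected on all 12, and PTPRC, CD3E, CD3D and MS4A1 on 0. Of 6 endothelial markers none was detected on all 12 arrays, and VWF, CDH5, KDR and TEK were detected on 0. KD1 replicate 1 stood apart from the other siRNA arrays. Its value on the first principal component, which held 38.3% of the variance, was -1.46, against 19.01 to 42.8 on the other 5 siRNA arrays and -27.5 to -16.9 on the 6 plasmid arrays.

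PGC-1α (PPARGC1A) and its relatives PGC-1β (PPARGC1B) and PRC (PPRC1) are coactivators that do not bind DNA themselves. They are known to act through nuclear respiratory factor 1 (NRF1), the GA-binding protein GABP, whose DNA-binding subunit is GABPA, and the estrogen-related receptor ERRα (ESRRA), which switch on nuclear genes of respiration. Among the known targets are TFAM, which packages mitochondrial DNA and starts its transcription, and TFB2M, a transcription factor of mitochondria, as well as TFB1M, a methyltransferase of mitochondrial ribosomal RNA. POLG is the catalytic subunit of the mitochondrial DNA polymerase. SIRT1, an NAD+-dependent deacetylase, is known to deacetylate the PGC-1α protein, a step that transcript levels do not measure.

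Promoters from RefSeq (GRCh38.p14, 250 bases before to 50 after the gene's start) were found for 9 of the 10 genes, with a pair of start sites for PPARGC1A. Matches to 3 motifs were sought on both strands. The NRF1 core GCGCATGC occurred in 3.05% of 35116 promoters, and among the regulators in those of ESRRA, TFB1M and TFB2M. The GABP site CCGGAAG occurred in 10.3% of promoters, and in those of GABPA and TFB1M. The ERR half-site AAGGTCA occurred in 3.92% of promoters and in none of the 9 genes. These letters were settled on after others had been tried. GCGCATGCG (1.92% of promoters) was in TFB1M and TFB2M, TGCGCA (8.24%) in ESRRA and TFB2M, CGGAAG (19.5%) in GABPA, TFB1M and TFB2M, TCAAGGTCA (0.353%) in none, and the full NRF1 consensus (1.48%) in none. GCGCATGCG and TGCGCA overlap the NRF1 core, CGGAAG lies within the GABP site, and TCAAGGTCA contains the half-site. A match is a description of letters and was not tested as a site of binding.

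The 3 promoters with the NRF1 core are shown as a selection, without that of GABPA. NRF1 itself was not detected on any array. The promoters are written 5′ to 3′ on the gene's own strand, with matches to GCGCATGC or CCGGAAG, on either strand, in capitals. ESRRA is at chr11:64305274-64305573 on the plus strand, with its match starting 29 bases before the gene's start. TFB1M is at chr6:155314435-155314734 on the minus strand, with a pair of overlapping matches to the NRF1 core starting 132 and 130 bases before the start and the GABP letters at 85 bases before it. TFB2M is at chr1:246566212-246566511 on the minus strand, with its match 15 bases before the start.
ESRRA: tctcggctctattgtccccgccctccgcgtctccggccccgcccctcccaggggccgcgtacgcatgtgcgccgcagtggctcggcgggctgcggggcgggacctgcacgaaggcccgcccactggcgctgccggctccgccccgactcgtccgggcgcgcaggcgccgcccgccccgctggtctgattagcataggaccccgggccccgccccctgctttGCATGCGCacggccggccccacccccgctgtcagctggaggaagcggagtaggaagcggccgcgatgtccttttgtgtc
TFB1M: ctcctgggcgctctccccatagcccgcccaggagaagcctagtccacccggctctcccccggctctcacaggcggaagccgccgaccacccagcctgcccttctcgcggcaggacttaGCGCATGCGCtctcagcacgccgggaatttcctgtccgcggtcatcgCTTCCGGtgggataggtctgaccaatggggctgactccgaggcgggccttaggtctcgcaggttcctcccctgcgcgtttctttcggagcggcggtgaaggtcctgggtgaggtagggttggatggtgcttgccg
TFB2M: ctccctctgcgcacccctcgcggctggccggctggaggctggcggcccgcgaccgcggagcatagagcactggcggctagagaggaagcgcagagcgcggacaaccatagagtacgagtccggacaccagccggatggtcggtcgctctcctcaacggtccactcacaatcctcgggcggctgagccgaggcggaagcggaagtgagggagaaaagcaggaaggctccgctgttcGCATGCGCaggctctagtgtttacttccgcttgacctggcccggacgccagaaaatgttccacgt

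Not all of the regulators could be measured in these cells. PPARGC1A, the coactivator the pathway is named for, had 1 probe, which was detected on 0 of 12 arrays. The 3 probes of NRF1 and the second of the 2 GABPA probes (ILMN_2175562) were also detected on 0 of 12. PPARGC1B was detected on 2 of 12 arrays, OE Sirt1 replicate 3 and siRNA control replicate 2. The other 8 probes, of PPRC1, GABPA, ESRRA, TFAM, TFB1M, TFB2M (2 probes) and POLG, were detected on all 12. The filter, detection on at least 2 arrays, therefore kept 9 of the 14 probes, for 8 of the 10 genes.

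**Figure D1:**
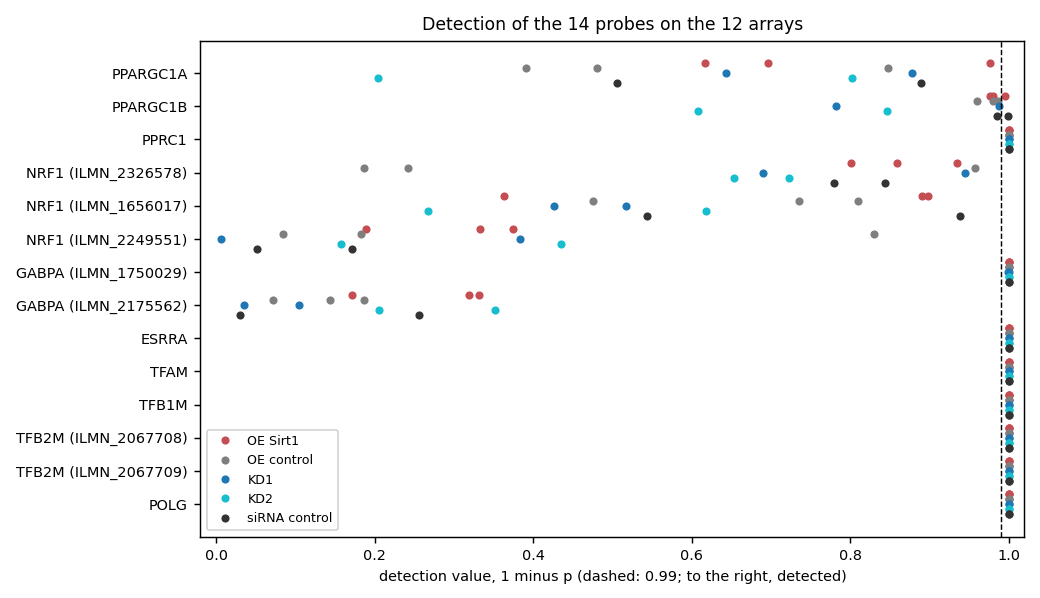
Detection value (1 minus the detection p-value) of each of the 14 probes on the 12 arrays, 1 point per array, coloured by group, with a dashed line at 0.99. The points of 8 probes all lie right of the line, those of PPARGC1B lie on both sides, and those of the other 5 probes all lie left of it.

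The level of PPARGC1A, as background-corrected and quantile-normalised log2 intensity, was 4.73, 5.48 and 4.75 on the OE Sirt1 arrays, against 4.64, 4.61 and 4.98 on the OE control arrays. It was 4.99 and 4.74 in KD1, 4.49 and 4.90 in KD2 and 4.99 and 4.64 in the siRNA control. All of these readings lay below detection, with detection p-values of 0.0234 to 0.796, so they carry no order and no fold change is given. The NRF1 probes read 4.34 to 5.32 over all arrays and were likewise below detection, as was the second GABPA probe at 4.39 to 4.57.

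The targeted gene came first as a check of the labels. SIRT1 was at 8.62, 8.58 and 8.76 on the arrays labelled OE Sirt1, against 8.49, 8.54 and 8.93 on those labelled OE control. The groups overlapped, and the difference was -0.003 ± 0.18 (log2, SE; limma adjusted p = 1). The SIRT1 probe thus did not show overexpression on the arrays labelled OE Sirt1. Whether that probe lies in the part of the transcript carried by the plasmid was not tested. In the knockdowns SIRT1 was at 7.31 and 7.29 in KD1 and 7.83 and 7.14 in KD2, against 8.54 and 8.83 in the siRNA control, and no knockdown array overlapped the controls. The difference was -1.39 ± 0.23 for KD1 (limma adjusted p = 0.0934) and -1.20 ± 0.23 for KD2 (adjusted p = 0.0634), both short of the threshold of 0.05. The mean of both knockdowns passed it, at -1.30 ± 0.19 (adjusted p = 0.0424). With 1 probe per gene tested, KD1 and KD2 passed it too (adjusted p = 0.0468 and 0.0492).

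On the arrays labelled OE Sirt1, none of the 9 regulator probes passed the test against OE control (limma, two-sided, Benjamini-Hochberg over 19263 probes). The share of all tested probes called was 0%, with 0 calls of 19263, and 748 probes had an unadjusted p under 0.05, where 963 would be expected by chance. Of the 9 probes 6 were above 0 and 3 below, with a median log2 fold change of 0.06, against 0.01 over all probes. The largest difference was that of ESRRA. The groups did not overlap for 1 of the 9 probes, GABPA, and for 8.54% of all probes.

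ESRRA was at 8.40, 8.54 and 8.25 with SIRT1 plasmid, against 7.89, 8.38 and 8.29 with vector, a difference of 0.21 ± 0.17 (log2, SE), and the groups overlapped. Its 95% interval ran from -0.16 to 0.58. GABPA (ILMN_1750029) was at 6.83, 6.96 and 6.89 with SIRT1 plasmid, against 6.65, 6.72 and 6.72 with vector, so that each array with the plasmid was above each with vector. The difference was 0.19 ± 0.12, with an interval of -0.08 to 0.47 and a limma adjusted p of 1. GABPA is the subunit by which GABP binds DNA. TFAM, a known target of GABP and NRF1, was at 11.25, 11.34 and 11.37 with SIRT1 plasmid, against 11.27, 11.34 and 11.39 with vector. Its values overlapped throughout, the difference was -0.01 ± 0.11, and the interval ran from -0.26 to 0.23. The coactivator PPRC1 differed by 0.10 ± 0.23 and PPARGC1B, detected on 1 of these 6 arrays, by -0.07 ± 0.19. TFB1M differed by 0.04 ± 0.12, TFB2M by -0.09 ± 0.12 and 0.06 ± 0.10 with its 2 probes, and POLG by 0.08 ± 0.16. All of these groups overlapped.

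**Figure D2:**
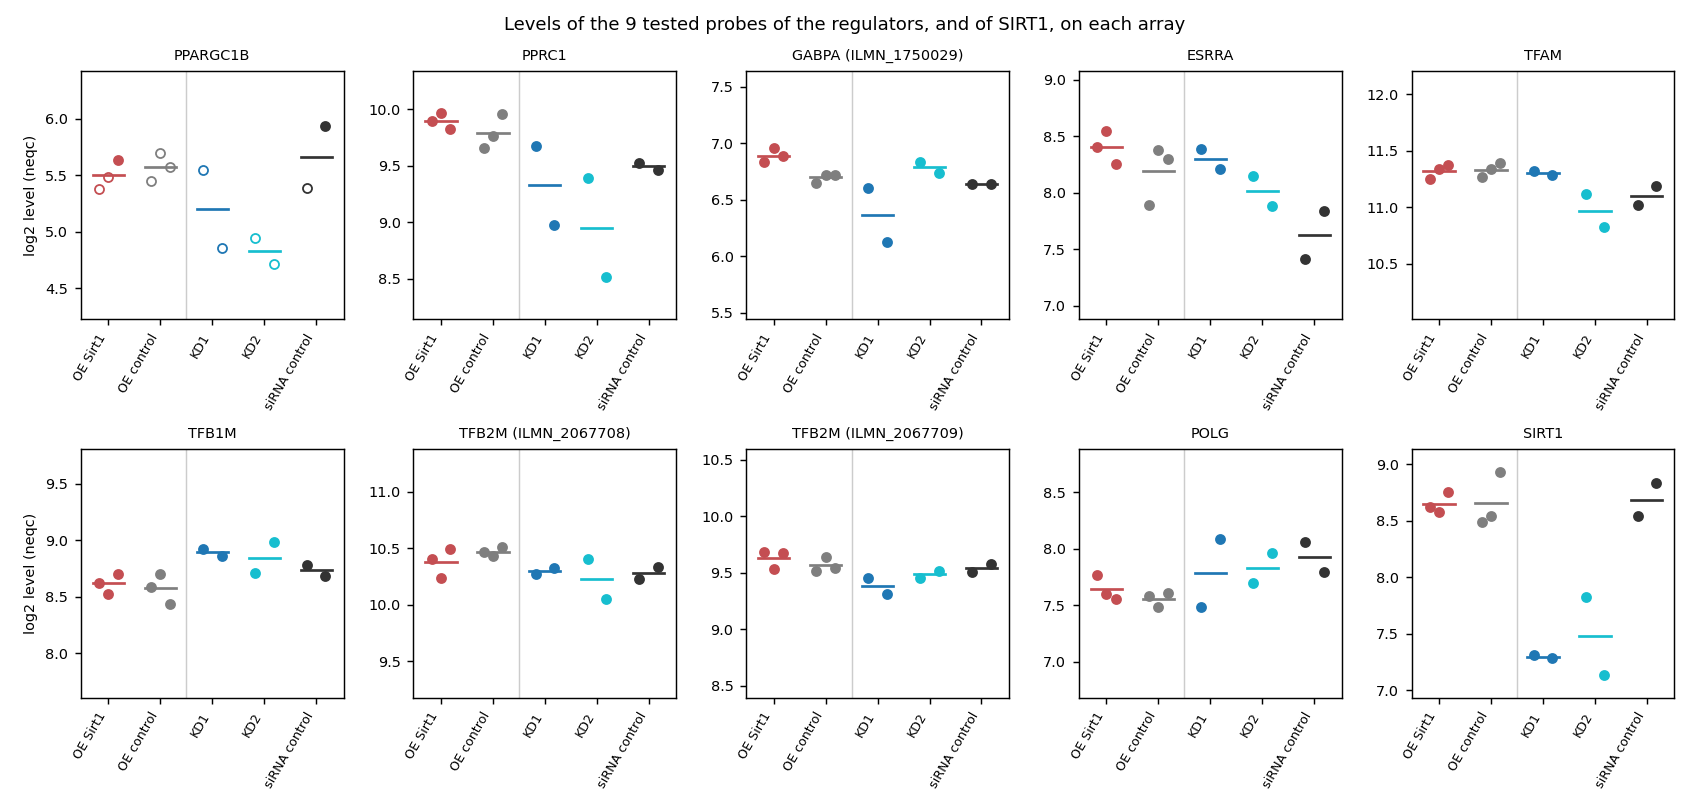
Level (log2, normalised intensity) of the 9 tested regulator probes and of SIRT1 on each of the 12 arrays, by group, with a bar at the group mean. Filled points are detected and open points not, and every panel spans the same height. SIRT1 is lower on all 4 knockdown arrays than on the siRNA controls, and ESRRA is higher. PPRC1 is spread widely in both knockdown groups, and PPARGC1B and POLG are spread widely in KD1.

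Knockdown gave no called regulator either. KD1 against the siRNA control called 0 of the 9 probes, where 0.0156% of all probes were called (3 of 19263). KD2 against the siRNA control called 0 of the 9, where 0.301% were called (58, of which 17 were higher and 41 lower). The mean of both knockdowns called 0 of the 9, where 0.119% were called (23). In KD1 4 of the 9 probes were above 0 and 5 below, with a median of -0.14, against 0.01 over all probes. In KD2 3 were above 0 and 6 below, with a median of -0.06, against -0.01 over all probes. Both knockdowns share the same 2 control arrays, so their differences are not independent. Over the 4 knockdown and 2 control arrays the groups did not overlap for 1 of the 9 probes, ESRRA, and for 16.6% of all probes. KD1 alone lay above the controls without overlap for 3 of the 9 probes and below for 2, against 19.2% and 18.5% of all probes. KD2 alone did so for 2 and 2, against 19.8% and 22.4%. The probes below the controls in KD2 include PPARGC1B, which was not detected on any knockdown array. It also enters the signs and medians given here.

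Among the coactivators, PPRC1 was at 9.68 and 8.97 in KD1 and 9.39 and 8.51 in KD2, against 9.53 and 9.46 in the siRNA control. KD1 lay on both sides of the controls and KD2 below them, with a gap between replicates in each knockdown larger than the gap to the controls. The difference was -0.17 ± 0.28 in KD1 and -0.54 ± 0.28 in KD2 (limma adjusted p = 0.928 and 0.476). Without KD2 replicate 3 the KD2 difference was -0.10. PPARGC1B was at 5.55 and 4.85 in KD1 and 4.94 and 4.72 in KD2, against 5.39 and 5.94 in the siRNA control, so KD2 lay below the controls and KD1 overlapped them. None of the 4 knockdown arrays was detected, and 1 of the 2 controls was. No bound on a fold is given, since 1 control was also below detection. The fitted difference of these readings, most of them below detection, was -0.46 ± 0.24 in KD1 (limma adjusted p = 0.675) and -0.83 ± 0.24 in KD2 (adjusted p = 0.205).

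Among the DNA-binding factors, ESRRA was at 8.39 and 8.21 in KD1 and 8.14 and 7.88 in KD2, against 7.42 and 7.84 in the siRNA control. Every knockdown array was above both controls. The difference was 0.67 ± 0.20 in KD1 (limma adjusted p = 0.382), 0.38 ± 0.20 in KD2 (adjusted p = 0.496) and 0.53 ± 0.18 for the mean of both (adjusted p = 0.360). Leaving out 1 array at a time it ran from 0.46 to 0.88 in KD1, 0.17 to 0.60 in KD2 and 0.32 to 0.74 for the mean. The interval for KD1, 0.22 to 1.12, is that of a single probe and does not account for the 19263 tested. The knockdown levels of ESRRA, 7.88 to 8.39, lay in nearly the same range as the 7.89 to 8.38 of the vector control arrays of the plasmid experiment. GABPA was at 6.60 and 6.13 in KD1 and 6.84 and 6.74 in KD2, against 6.64 and 6.64 in the siRNA control. KD1 was below both controls and KD2 above them. The difference was -0.27 ± 0.15 in KD1 and 0.15 ± 0.15 in KD2 (limma adjusted p = 0.693 and 0.762), and leaving out 1 array the KD1 value ran from -0.51 to -0.04.

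Among the factors that act in mitochondria, TFAM was at 11.32 and 11.29 in KD1 and 11.11 and 10.82 in KD2, against 11.02 and 11.18 in the siRNA control. KD1 lay above the controls and KD2 overlapped them. The difference was 0.20 ± 0.13 in KD1 and -0.13 ± 0.13 in KD2 (limma adjusted p = 0.771 and 0.754). TFB1M was at 8.93 and 8.86 in KD1 and 8.71 and 8.98 in KD2, against 8.79 and 8.69 in the siRNA control, with differences of 0.16 ± 0.14 and 0.11 ± 0.14. KD1 was just above the controls and KD2 overlapped them. The 2 probes of TFB2M differed by 0.02 ± 0.15 and -0.16 ± 0.12 in KD1, and by -0.05 ± 0.15 and -0.06 ± 0.12 in KD2. POLG was at 7.48 and 8.08 in KD1 and 7.70 and 7.96 in KD2, against 8.06 and 7.80 in the siRNA control, and both knockdowns overlapped the controls. Its difference was -0.14 ± 0.19 in KD1 and -0.09 ± 0.19 in KD2.

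**Figure D3:**
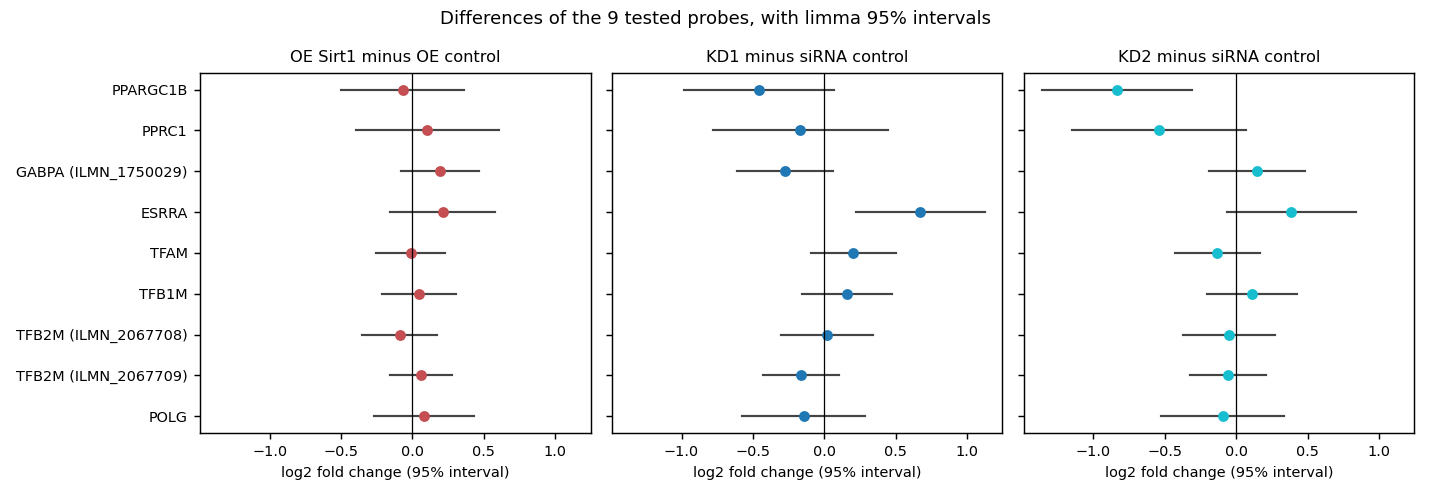
Log2 fold change of the 9 tested probes with limma's 95% interval, in 3 panels for OE Sirt1 against OE control, KD1 against siRNA control and KD2 against siRNA control. The intervals of ESRRA in KD1 (0.22 to 1.12) and of PPARGC1B in KD2 (-1.36 to -0.31) do not hold 0. Neither passed the test after adjustment over all probes. PPARGC1B was below detection on both KD2 arrays and detected on 1 of the 2 siRNA controls, so its interval is not read as a fold change.

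The siRNAs, which target different stretches of SIRT1, were also set against each other. KD1 against KD2 called 0 of the 9 probes, where 0.317% of all probes were called (61). KD1 lay above KD2 without overlap for 2 of the 9 probes and below for 2, against 19.1% and 16.8% of all probes. GABPA was lower in KD1 by the largest amount of the 9, at -0.42 ± 0.15 (limma adjusted p = 0.361), and ran from -0.66 to -0.18 on leaving out 1 array. TFAM was 0.34 ± 0.13 higher in KD1 (limma adjusted p = 0.402), with the KD1 arrays above the KD2 arrays. ESRRA was 0.29 ± 0.20 higher in KD1, without overlap, and PPRC1 was 0.37 ± 0.28 higher with overlapping arrays. No difference is read for PPARGC1B, which was not detected on any of the 4 arrays.

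The comparison of the controls of the 2 experiments called more probes than any treatment. The siRNA control against the OE control called 0 of the 9 probes, where 2.55% of all probes were called (492, of which 378 were higher and 114 lower). The 2 groups did not overlap for 6 of the 9 probes, of which 1 was higher and 5 lower, and for 41.1% of all probes. The difference of siRNA control minus OE control was -0.56 ± 0.19 for ESRRA (limma adjusted p = 0.131), -0.23 ± 0.12 for TFAM, -0.30 ± 0.25 for PPRC1 and 0.37 ± 0.18 for POLG. With these controls in separate experiments, siRNA, plasmid and culture cannot be told apart.

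A list of 23 genes that rise in hypoxia, chosen with earlier results of these data known, differed in this contrast. All 22 of its tested genes were above 0 in siRNA control minus OE control. Of these 17 were called higher, where 378 of all 19263 probes were called higher. Among the 17 were ANKRD37 (4.88), LOX (4.65) and NDRG1 (2.44), as log2 fold changes with limma adjusted p of 0.0129, 0.0127 and 0.0219. The score of the list, the mean level of its genes after centring each, was -0.87, -0.93 and -0.78 with SIRT1 plasmid, against -0.86, -0.88 and -0.93 with vector. In the siRNA experiment it was -0.03 and 1.14 in KD1 and 0.67 and 1.40 in KD2, against 1.11 and 0.95 in the siRNA control. It thus varied within each knockdown, and KD1 replicate 1 had the lowest value of the siRNA arrays. PPRC1 had its highest siRNA level, 9.68, on that array and its lowest, 8.51, on KD2 replicate 3, which had the highest score. ESRRA had its highest siRNA level, 8.39, on KD1 replicate 1 too, but its lowest on a control. On the other siRNA arrays PPRC1 was 9.39 at a score of 0.67, 9.46 at 0.95, 9.53 at 1.11 and 8.97 at 1.14. Whether these levels follow the score was not tested. The score does not overlap between the controls (0.95 and 1.11 in the siRNA control, against -0.93 to -0.86 in the OE control), so in that comparison it and the groups cannot be told apart.

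**Figure D4:**
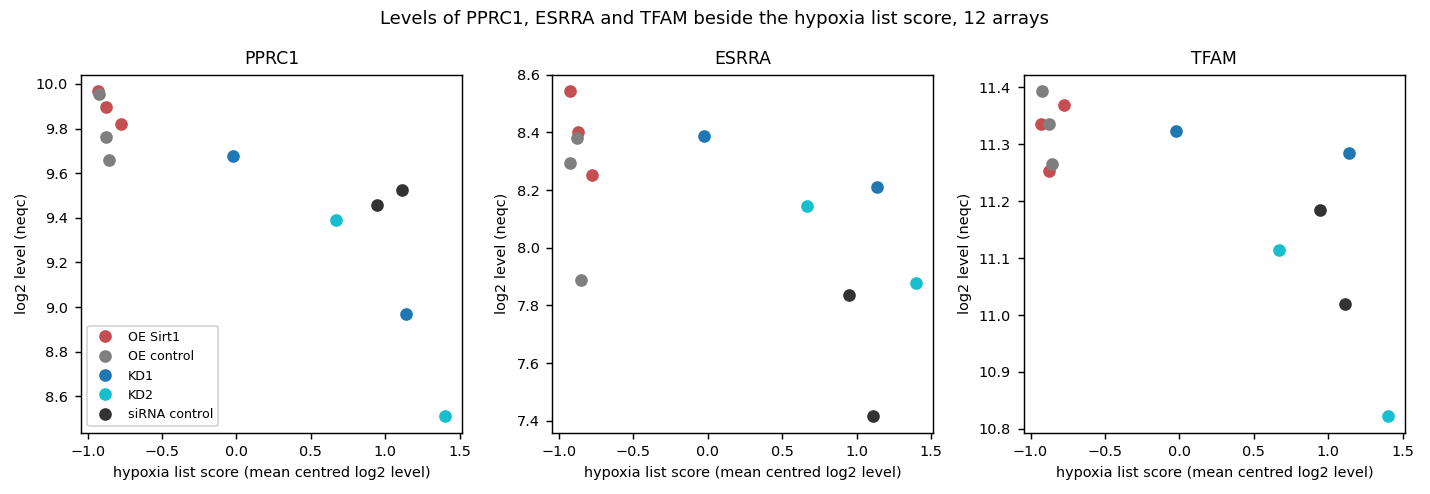
Level (log2) of PPRC1, ESRRA and TFAM against the score of the hypoxia list on the 12 arrays, coloured by group. The 3 genes were picked for display after their values were seen. The 6 plasmid arrays lie between -0.93 and -0.78 on the score and the siRNA arrays between -0.03 and 1.40. PPRC1 is lowest on the array with the highest score, and a relation of level to score was not tested.

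The wider pathway was followed in 4 lists, each gene by its probe of highest mean level. Of 26 tested partners and regulators of PGC-1, none was called on the arrays labelled OE Sirt1 or in either knockdown. Their median log2 fold change was 0.03 for the plasmid, 0.04 in KD1 and -0.08 in KD2, against 0.01, 0.01 and -0.01 over all probes. The smallest p of the list in KD1 was that of ESRRG, an estrogen-related receptor, at 0.61 ± 0.23 (limma adjusted p = 0.521). In KD2 it was that of PRKAA1, a catalytic subunit of the AMP-activated kinase, at -0.52 ± 0.15 (adjusted p = 0.221).

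Of 31 tested genes of mitochondrial DNA replication, transcription and upkeep, none was called in these 3 comparisons either, with medians of -0.01, 0.04 and 0.09 for the plasmid, KD1 and KD2. LRPPRC, which stabilises mitochondrial messenger RNAs, was at 9.85 and 9.86 in KD1 and 9.87 and 9.95 in KD2, against 9.44 and 9.37 in the siRNA control. All 4 knockdown arrays were above both controls, by 0.45 ± 0.12 in KD1 (limma adjusted p = 0.307) and 0.51 ± 0.12 in KD2 (adjusted p = 0.119). Of all probes, 16.6% separated the knockdown arrays from these controls in either direction, and 8.25% with the knockdowns higher. Against the OE control, the siRNA control was lower in LRPPRC (-0.50 ± 0.11, limma adjusted p = 0.0405) and in HSD17B10 (-0.70 ± 0.16, adjusted p = 0.0493), a subunit of mitochondrial RNase P. These were the 2 of its 31 genes called in that comparison, in which 2.55% of all probes were called.

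Of 36 tested nuclear genes known as targets of NRF1, GABP or ERRα, none was called in any of the comparisons, and the medians were 0.01 for the plasmid, 0.01 in KD1 and 0.02 in KD2. ALAS1, the first enzyme of heme synthesis, was at 7.49 and 7.12 in KD1 and 7.43 and 7.01 in KD2, against 6.50 and 6.36 in the siRNA control. The knockdown arrays did not overlap the controls for ALAS1, nor for 16.6% of all probes in either direction. Its difference was 0.87 ± 0.25 in KD1 and 0.79 ± 0.25 in KD2 (limma adjusted p = 0.372 and 0.244). On the arrays labelled OE Sirt1, IDH3A of the citric acid cycle came nearest, at 0.33 ± 0.16 (adjusted p = 1).

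Of 21 tested genes of mitochondrial fusion, fission and turnover, none was called for the plasmid or the knockdowns. MARCHF5, a ubiquitin ligase of the mitochondrial outer membrane, was 0.49 ± 0.18 above the siRNA control in KD1 and 0.62 ± 0.18 in KD2 (limma adjusted p = 0.523 and 0.224). MIEF1, a receptor for the fission protein DRP1, was -0.48 ± 0.12 in KD2 (adjusted p = 0.172). The mitophagy receptors BNIP3 (1.76 ± 0.25, limma adjusted p = 0.0173) and BNIP3L (1.65 ± 0.29, adjusted p = 0.0264) were higher in the siRNA control than in the OE control. They were the 2 of the 21 genes called in that comparison, in which 2.55% of all probes were called. BNIP3 is also on the hypoxia list.

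**Figure D5:**
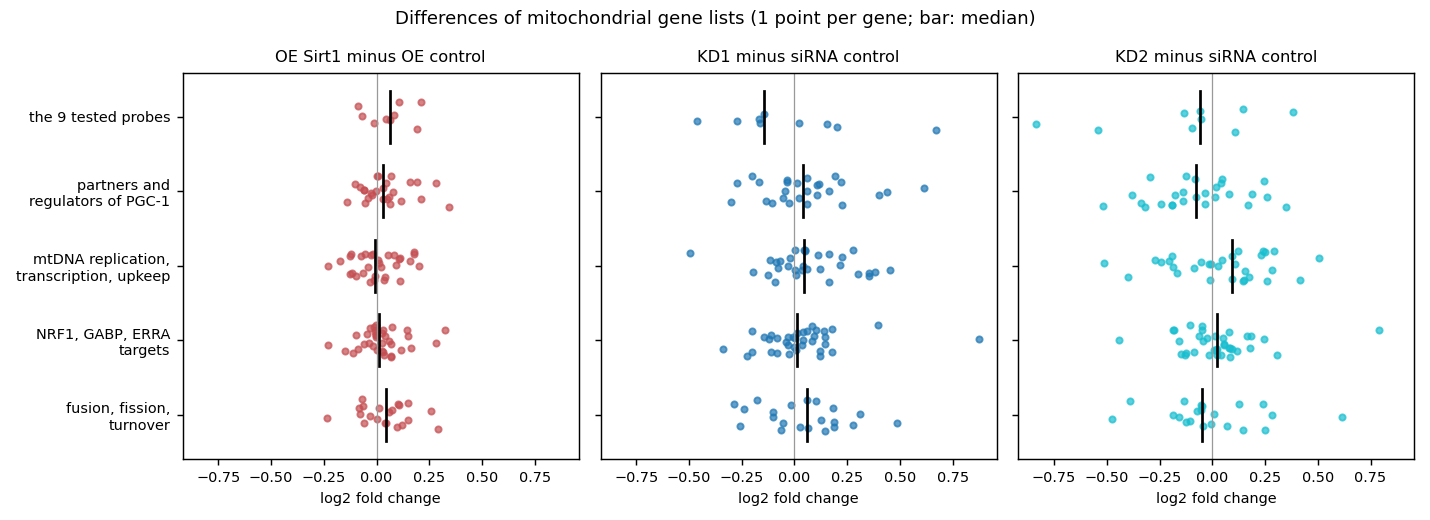
Log2 fold change of each tested gene of the 4 pathway lists and of the 9 regulator probes, in 3 panels for OE Sirt1 against OE control, KD1 against siRNA control and KD2 against siRNA control, with a bar at each list's median. The medians lie between -0.14 and 0.09, and points spread more widely in the knockdowns than with the plasmid.

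Markers of the intestinal epithelium and of other cell types were set beside these lists. The fibroblast list's score was 0.15 to 0.28 in KD1 and 0.23 to 0.26 in KD2, against -0.10 to 0.02 in the siRNA control. Of its 8 tested genes 6 were above 0 and 2 below in KD1, from -0.39 to 0.83, and none was called. In KD2 5 were above 0 and 3 below, from -0.63 to 0.99. COL3A1 alone was called in KD2 (0.99 ± 0.14, limma adjusted p = 0.0212), where 0.301% of all probes were called. PDGFRA was called in KD1 minus KD2 (0.96 ± 0.14, limma adjusted p = 0.0379), where 0.317% of all probes were called. The leukocyte score, of 4 tested genes, was -0.04 to 0.08 in KD1 and -0.04 to 0.22 in KD2. It was 0.32 to 0.36 in the siRNA control. In each knockdown 1 of these genes was above 0 and 3 were below, and none was called. Their differences ran from -0.91 to 0.30 in KD1 and from -0.60 to 0.29 in KD2. The intestinal epithelial score was -0.17 to 0.003 in KD1 and 0.07 in KD2, against 0.10 to 0.11 in the siRNA control. None of its 14 tested genes was called in either knockdown. In KD1 5 were above 0 and 9 below, with a median of -0.05, and in KD2 9 were above and 5 below. APOA4 had the largest fall in KD1, at -1.97 ± 0.42 (limma adjusted p = 0.186). KRT18 was 0.58 ± 0.17 in KD2 (adjusted p = 0.221). The endothelial score, of 2 tested genes, was 0.10 in KD1 and 0.37 to 0.48 in KD2, against 0.13 to 0.29 in the siRNA control. Some markers were also called in siRNA control minus OE control, where 2.55% of all probes were called. APOA4 (2.17 ± 0.39), CD68 (1.06 ± 0.18), PDGFRB (0.92 ± 0.20) and COL1A2 (0.86 ± 0.16) were higher in the siRNA control. KRT18 was lower (-0.99 ± 0.16). The part of any of these markers in the regulators' values was not tested.

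Across the groups, the order of the means was OE Sirt1, OE control, siRNA control, KD1, KD2 for PPRC1, where the siRNA control was the only group that did not overlap its higher neighbour. For ESRRA it was OE Sirt1, KD1, OE control, KD2, siRNA control, and KD2 and the siRNA control were the neighbours that did not overlap. For TFAM it was OE control, OE Sirt1, KD1, siRNA control, KD2, with a range of group means of 0.36, and KD1 and the siRNA control did not overlap. For GABPA (ILMN_1750029) it was OE Sirt1, KD2, OE control, siRNA control, KD1, and only OE Sirt1 and KD2 overlapped. For TFB2M (ILMN_2067709) only KD2 and KD1 were neighbours without overlap. For TFB1M, POLG and TFB2M (ILMN_2067708) every neighbour overlapped, and the group means spanned 0.32, 0.37 and 0.24. Of all probes, 20.8% were lower in the siRNA control than in the OE control without overlap. KD2 and KD1 lay above the siRNA control for 19.8% and 19.2%, and KD1 below it for 18.5%. These orders mix arrays of separate experiments.

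The genes most like PPARGC1B were sought in its place, as PPARGC1A was not tested. By root mean square difference of centred log2 levels over the 12 arrays these were SEPHS2 (0.151), H2AX (0.161), PARP9 (0.167), ZNF480 (0.175) and SNORA62 (0.175), where the median over all genes was 0.392. PPARGC1B was below detection on 10 of the 12 arrays, while each of these genes was detected on all 12. The likeness is thus to readings mostly below detection, and it is not read as shared expression.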

How the data were processed

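The 12 arrays were grouped by sample title. GenomeStudio 2010.1 is named in the submitters' processing notes. Raw intensity was deposited for 47323 probes. Each deposited intensity has its detection p-value, kept in the file as 1 minus this p. The authors also deposited normalised log2 values, used as an alternative; by which method is not given in the sources used here. All 47231 probes of the deposited value table were corrected for background by means of these p-values, quantile-normalised and put on log2 (limma 3.58.1, R 4.3.3, offset 16). Probes detected (p below 0.01) on at least 2 arrays, 19263, were tested one by one in 1 limma fit over all arrays with a mean per group (7 residual degrees of freedom), two-sided, with Benjamini-Hochberg adjustment over all of them and a threshold of 0.05. Values are given ± SE. The fit is per probe because the genes were defined by probes; 1 probe per gene is an alternative. The members, lists and alternatives were chosen with earlier results of these data known. The number of arrays limits the precision. Positions are those of the RefSeq promoters alone, as no build is named for the probes. The fit was run on simulated arrays with noise drawn separately for each probe, so shared shifts between arrays were not part of that check. Its outcome is not given here. Genes named were all members, SIRT1, called genes of each list (up to 6 by fold change), otherwise the 2 of smallest p, and the 5 most like PPARGC1B, with a selection printed. Same-numbered replicates correlated at -0.15, -0.11 and 0.05 (plasmid), 0.01 (KD1) and 0.14 (KD2) in their deviations from group means, so numbers were not taken to pair arrays.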

Additional observations from a re-analysis of the deposited data

Results flagged for a closer look

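GABPA was flagged because both KD1 arrays lay below the siRNA controls and both KD2 arrays above them. Of all probes, 18.5% lay below the controls without overlap in KD1 and 19.8% above them in KD2. KD1 replicate 1, at 6.60, was close to the controls at 6.64. Neither knockdown passed the test against the siRNA control for GABPA (limma adjusted p = 0.693 and 0.762). The difference of KD1 minus KD2 was -0.42 (log2, SE 0.15), tested with limma at an adjusted p of 0.361, which does not pass the threshold. Leaving out 1 array at a time, it ran from -0.66 to -0.18, the smaller size without KD1 replicate 2.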

How the results depend on the processing

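Of 789 values of the regulator probes under the alternatives, 742 kept their sign, 47 changed it and 0 were called, with a smallest adjusted p of 0.0620, for ESRRA between the controls with trend and robust variance. The cause of each change was not tested. Probes called in KD1 (3) numbered 60 without background correction, 62 with the authors' values, 0 without the detection filter, 8 with detection on all arrays of a group, 21 with 1 probe per gene, 0 with the experiment's arrays alone and 62 with trend and robust variance. In KD2 (58) they numbered 182 without background correction, 210 with the authors' values, 0 with the experiment alone, 198 with trend and robust variance and 96 with the hypoxia score as covariate, which was chosen after seeing the data. For the mean of both (23) they were 70, 81, 13 with median centring, 10 without the filter, 0 with the experiment alone and 84 with trend. For KD1 against KD2 (61) they were 151, 166, 10 with median centring, 7 without the filter, 100 with detection on all arrays of a group, 0 with the experiment alone, 152 with trend and 18 with the covariate. Between the controls (492) they were 1150, 1217, 122 without the filter, 1155 with trend and 0 with the covariate.

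SIRT1 was called in KD1 without background correction (-1.004), with the authors' values (-0.94), with 1 probe per gene (-1.39, adjusted p 0.0468) and with trend (-1.39). In KD2 it was called under these at -0.88, -0.82, -1.20 and -1.20, and with detection on all arrays of a group (-1.20). The mean of both was not called with median centring (-1.29), without the filter (-1.30) or with the experiment alone (-1.30). With the plasmid SIRT1 was 0.0049 with the covariate.

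With the replicate block, a test of pairing by number, 0 probes were called in KD1, KD2, KD1 against KD2 and between the controls, and 3 for the mean, where SIRT1 (-1.16) was not called. The block turned PPRC1 to 0.091 in KD2 and -0.26 in KD1 against KD2, TFB2M (ILMN_2067708) to 0.087 in KD2, 0.054 for the mean and -0.066 in KD1 against KD2, GABPA to 0.019 for the mean, POLG to 0.17 in KD1 against KD2, and PPARGC1B to -0.049 and TFB2M (ILMN_2067709) to 0.019 between the controls. Median centring turned TFB2M (ILMN_2067708) to 0.012 for the mean and PPARGC1B to -0.098 between the controls. The covariate turned TFB2M (ILMN_2067708) to -0.024 and POLG to 0.081 in KD1, POLG to 0.18 in KD1 against KD2, and between the controls PPRC1 to 1.18, GABPA to 0.56, TFAM to 0.053, TFB1M to -0.014, TFB2M (ILMN_2067709) to 0.085 and POLG to -0.54. There ESRRA was -0.028 and PPARGC1B 1.12, and the score does not overlap between these controls.

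Leaving out 1 array at a time gave 0 calls in KD1, 0 to 35 in KD2, 0 to 16 for the mean, 0 to 19 in KD1 against KD2 and 0 to 41 between the controls. SIRT1 ran from -0.087 to 0.14 with the plasmid, -1.55 to -0.86 in KD2 and -1.47 to -1.12 for the mean. KD2 was called without KD2 replicate 2 (adjusted p 0.0410). The mean kept its call without KD2 replicate 2 and lost it without KD2 replicate 3 (0.0557), either KD1 array (0.0997 and 0.103) or either siRNA control (0.394 and 0.485). With the plasmid TFAM ran from -0.046 to 0.020 and TFB1M from -0.026 to 0.11. In KD1 PPRC1 ran from -0.52 to 0.18, POLG from -0.44 to 0.16 and TFB2M (ILMN_2067708) from -0.031 to 0.072. In KD2 TFAM ran from -0.28 to 0.013, TFB1M from -0.027 to 0.25, POLG from -0.23 to 0.038 and TFB2M (ILMN_2067708) from -0.23 to 0.13. For the mean GABPA ran from -0.18 to 0.054, TFAM from -0.048 to 0.12, POLG from -0.27 to 0.032 and TFB2M (ILMN_2067708) from -0.11 to 0.073. In KD1 against KD2 PPRC1 ran from -0.066 to 0.81, TFB1M from -0.090 to 0.18, POLG from -0.35 to 0.25 and TFB2M (ILMN_2067708) from -0.10 to 0.25. GABPA ran from -0.51 to -0.038 in KD1 and -0.66 to -0.18 in KD1 against KD2, and ESRRA from 0.17 to 0.60 in KD2 and 0.32 to 0.74 for the mean, with no change of sign. PPRC1 ran from -0.98 to -0.10 and PPARGC1B from -1.11 to -0.56 in KD2. Between the controls PPARGC1B ran from -0.18 to 0.37 and TFB2M (ILMN_2067709) from -0.057 to 0.012. Where a group keeps 1 array, that array is assumed to vary like the other groups.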
